A study of Mus musculus with 16 samples.

Results

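Transcripts of 10 genes that take up, activate and carry long-chain fatty acids were followed in 16 mouse livers. The genes were chosen by function, with earlier results of these data known. They were 4 long-chain acyl-CoA synthetases (Acsl1, Acsl3, Acsl4 and Acsl5) and 2 fatty acid transport proteins (Slc27a2 and Slc27a4). The others were the scavenger receptor Cd36 and 3 fatty acid-binding proteins (Fabp1, Fabp2 and Fabp4). All 10 were found by symbol among the 16973 genes of the deposited count table, and all 10 passed the filter on low counts in every comparison. The livers came from male C57BL/6 mice held in a specific-pathogen-free facility on alternating 12-h periods of light and dark, with unrestricted food. There were 4 livers in each of 4 groups: METTL3 hepatocyte-specific knockout, METTL3 flox/flox, RPN11 hepatocyte-specific knockout and RPN11 flox/flox. METTL3 is the catalytic subunit of the m6A RNA methyltransferase complex, and RPN11, encoded by Psmd14, is the deubiquitylase of the proteasome lid. The series concerns fatty liver disease and the inhibition of RPN11. The sources used here do not state the promoter that drives Cre, the age of the mice or their diet, and every group carries floxed alleles. No label says which mice were littermates, so the independence of the livers within a group is not established. The p-values weigh group differences against the spread between these livers.

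A long-chain fatty acid enters a hepatocyte by passing through the membrane or with the help of proteins such as CD36 and the SLC27 family. Inside the cell it is bound by a small cytosolic fatty acid-binding protein, and an acyl-CoA synthetase joins it to coenzyme A. Only the acyl-CoA form can be burned in mitochondria and peroxisomes or built into triglyceride, phospholipid and cholesteryl ester. ACSL1 and ACSL5 are the main synthetases of rodent liver, ACSL3 sits on the endoplasmic reticulum and nascent lipid droplets, and ACSL4 prefers arachidonic acid and other polyunsaturated substrates. Several genes of the set, among them Acsl1, Fabp1 and Slc27a2, are classical targets of the nuclear receptor PPAR alpha in liver.

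Library totals lay between 15980959 and 29029592 counted reads, and counts of the 10 genes in single livers ran between 171 reads (Acsl4) and 178793 reads (Fabp1). Levels are counts per 1000000 (CPM) over library sizes scaled by TMM, a normalization that assumes most genes do not change. Mettl3 had 6.58, 6.20, 6.40 and 6.52 CPM in METTL3 knockout livers, against 13.7, 17.2, 17.7 and 14.4 CPM in METTL3 flox/flox livers, all 4 below every flox/flox liver (log2 fold change, here also log2 change, -1.29 ± 0.17 SE, edgeR adjusted p = 0.000647). Psmd14 had 91.9, 72.6, 83.4 and 63.4 CPM in livers labelled RPN11 knockout, against 74.2, 80.7, 76.1 and 81.8 CPM in RPN11 flox/flox livers. Its log2 fold change was 0.01 ± 0.11 (SE, edgeR adjusted p = 0.976), and counts over the whole gene cannot show the loss of single exons. Those livers are therefore called livers labelled RPN11 knockout throughout. The replicate 4 livers of both knockout groups stood apart. Summed brain markers without Slc1a2, which hepatocytes also express, reached 252 CPM in METTL3 knockout replicate 4 and 373 CPM in labelled RPN11 knockout replicate 4, against 13.0 to 24.6 CPM in the other 14 livers. Results are given with and without these livers where that moves them. Hepatocyte markers were high in all 16 livers, with Alb between 45609 and 134834 CPM.

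**Figure D1:**
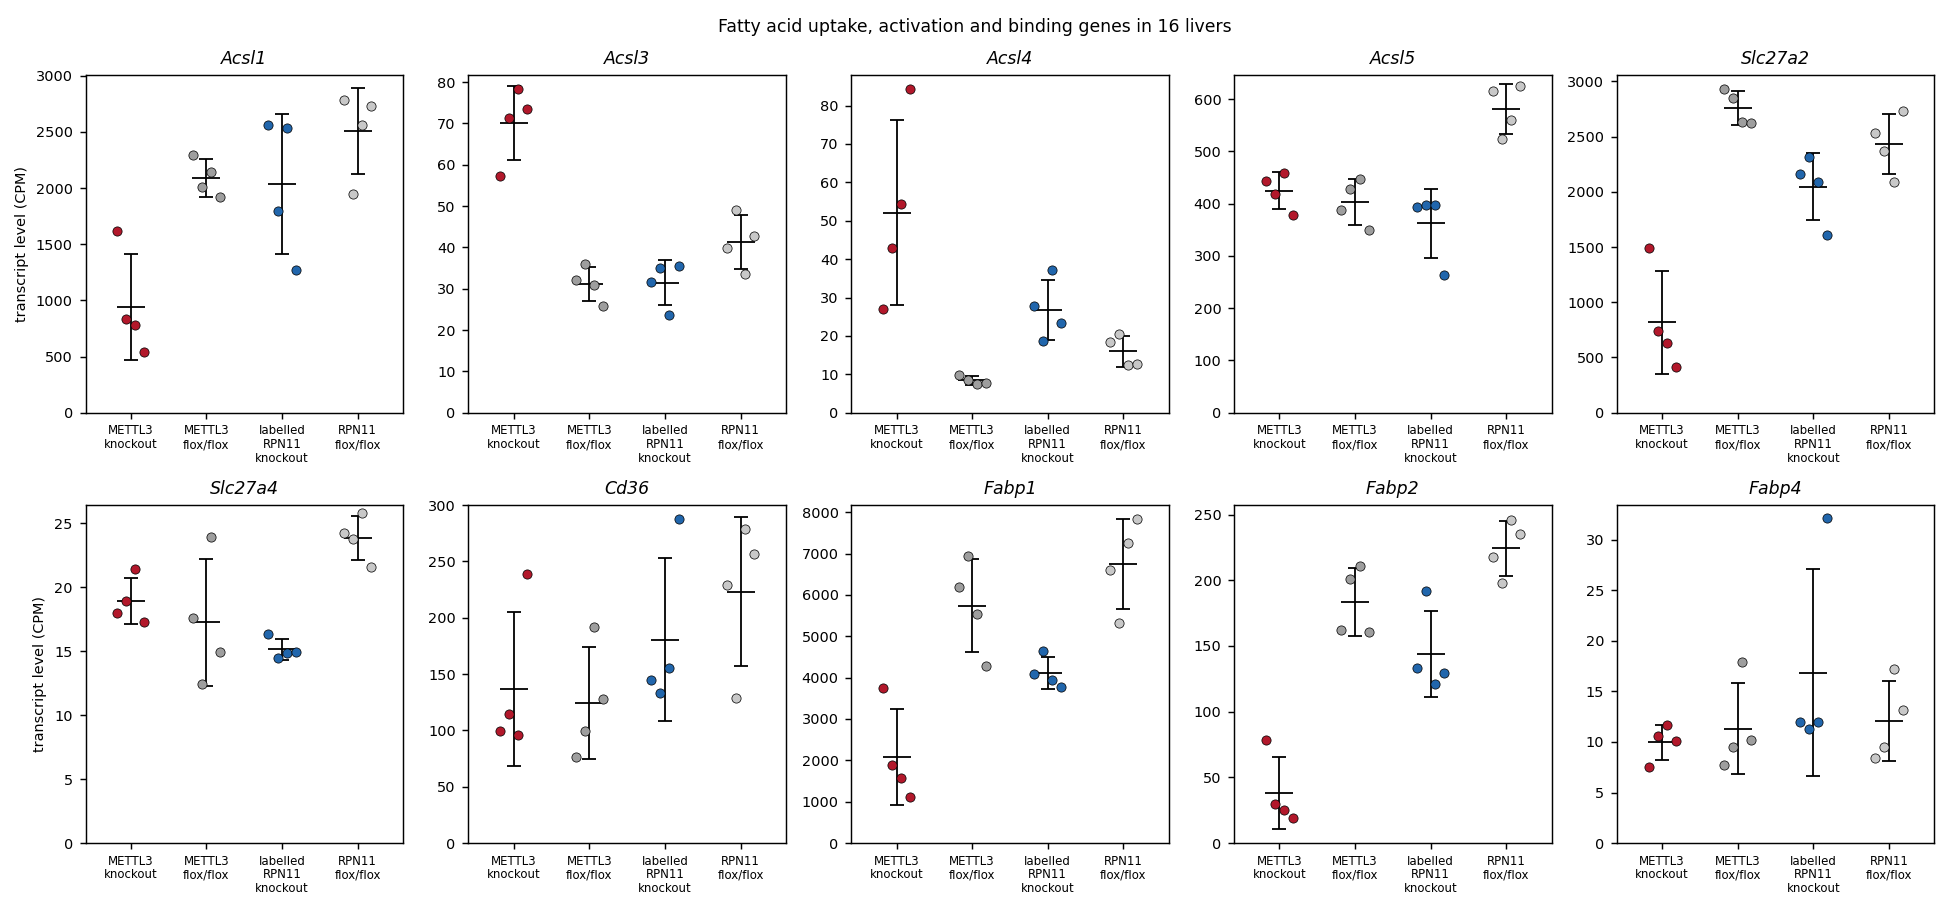
Transcript level (CPM, vertical axis from 0) of each of the 10 genes in every liver, by group, with points for livers (replicates 1 to 4 from left to right), the long dash for the mean and bars for the SD (n = 4). Acsl3 and Acsl4 sit higher, and Acsl1, Slc27a2, Fabp1 and Fabp2 lower, in the METTL3 knockout livers than in any METTL3 flox/flox liver, and Acsl5, Slc27a4, Fabp1 and Fabp2 lie lower in livers labelled RPN11 knockout than in any RPN11 flox/flox liver.

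Levels of the genes differed by orders of magnitude. Per kilobase of principal transcript, Fabp1 led with 10384 ± 2043 CPM per kb in METTL3 flox/flox livers (SD, n = 4). In the same livers Slc27a2 had 945 ± 53.1, Acsl1 536 ± 42.3, Fabp2 190 ± 27.0 and Acsl5 95.0 ± 10.2 CPM per kb. Liver fatty acid-binding protein (Fabp1), a very-long-chain acyl-CoA synthetase and transporter of peroxisomes and endoplasmic reticulum (Slc27a2) and the main hepatic synthetase (Acsl1) thus held the first ranks. Lower in the order came Cd36 at 36.5 ± 14.7, Fabp4 at 12.6 ± 5.04, Acsl3 at 7.90 ± 1.06, Slc27a4 at 4.26 ± 1.22 and Acsl4 at 1.59 ± 0.21 CPM per kb. RPN11 flox/flox livers had the same order of means, with 12210 ± 1956 CPM per kb for Fabp1 and 3.02 ± 0.78 CPM per kb for Acsl4. In METTL3 knockout livers Acsl5 (100.01 ± 8.38 CPM per kb) lay above Cd36 (40.3 ± 20.1) and Fabp2 (39.5 ± 28.4), which did not differ beyond their spread. Acsl4, at 9.87 ± 4.57 CPM per kb, came above Slc27a4 (4.67 ± 0.45) there, and likewise in livers labelled RPN11 knockout, with 5.07 ± 1.49 CPM per kb against 3.74 ± 0.20. Orders and shares per kilobase depend on the length used. For Fabp4 all annotated exons cover 4489 bases and the principal transcript 896, and for Acsl1 10483 and 3897.

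The 10 genes lie on 8 chromosomes (GRCm38, GENCODE M21). Acsl1 lies at chr8:46471037-46536051 (+), Acsl3 at chr1:78657825-78707743 (+), Acsl4 at chrX:142317993-142390535 (-) and Acsl5 at chr19:55251938-55297720 (+). Slc27a2 lies at chr2:126552407-126588243 (+), Slc27a4 at chr2:29802634-29817522 (+) and Cd36 at chr5:17781690-17888801 (-). Fabp1 lies at chr6:71199827-71205023 (+), Fabp2 at chr3:122895072-122899506 (+) and Fabp4 at chr3:10204088-10208576 (-). Exons of 4 genes overlap those of a neighbour: Acsl1 with Gm45244 over 9.91% of its exon bases, Acsl5 with Zdhhc6 over 8.31% and Slc27a2 with Gm26697 over 11.2%, all antisense, and Acsl3 with Utp14b over 5.6% on the same strand. The sources used here do not state whether counting used strand, so reads in those stretches cannot be told apart.

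Promoter windows (250 bases before to 50 after a start site, RefSeq, GRCm38.p6) were matched by symbol for 9 of the 10 genes, 10 windows in all. The windows of 4 genes are printed because these genes carry the comparisons below: Fabp1 and Fabp2, the binding protein genes that were lower in both lines, and Acsl3 and Acsl4, the synthetase genes that were higher in METTL3 knockout livers. Capitals mark matches, on either strand, to a DR1 element (AGGNCA repeated in the same direction with 1 base between, the form bound by PPAR and RXR), an HNF1 site (GTTAAT, any base, ATTAAC), a sterol response element (TCACNCCAC), a TATA box (TATAAA) and a CCAAT box (CCAAT). None of these matches overlap each other in the 10 windows.

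Fabp1, chr6:71199629-71199928 (+): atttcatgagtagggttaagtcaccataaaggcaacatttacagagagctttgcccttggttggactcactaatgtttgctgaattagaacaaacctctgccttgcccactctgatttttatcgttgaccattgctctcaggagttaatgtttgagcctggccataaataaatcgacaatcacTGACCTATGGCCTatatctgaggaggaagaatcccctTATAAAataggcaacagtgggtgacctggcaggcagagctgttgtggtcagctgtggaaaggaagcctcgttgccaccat
Fabp2, chr3:122894822-122895121 (+): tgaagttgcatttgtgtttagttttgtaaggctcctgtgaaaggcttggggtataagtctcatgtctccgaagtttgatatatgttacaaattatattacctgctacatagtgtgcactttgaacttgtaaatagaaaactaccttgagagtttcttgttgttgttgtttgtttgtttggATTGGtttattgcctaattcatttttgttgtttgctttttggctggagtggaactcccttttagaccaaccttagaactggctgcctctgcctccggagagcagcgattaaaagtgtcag
Acsl3, chr1:78657575-78657874 (+): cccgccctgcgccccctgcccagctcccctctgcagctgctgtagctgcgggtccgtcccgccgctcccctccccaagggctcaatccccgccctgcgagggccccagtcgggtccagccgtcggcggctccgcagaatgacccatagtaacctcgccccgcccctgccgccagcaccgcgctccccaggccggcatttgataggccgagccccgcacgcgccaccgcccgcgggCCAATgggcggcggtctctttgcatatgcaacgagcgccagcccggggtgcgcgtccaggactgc
Acsl4, chrX:142390486-142390785 (-): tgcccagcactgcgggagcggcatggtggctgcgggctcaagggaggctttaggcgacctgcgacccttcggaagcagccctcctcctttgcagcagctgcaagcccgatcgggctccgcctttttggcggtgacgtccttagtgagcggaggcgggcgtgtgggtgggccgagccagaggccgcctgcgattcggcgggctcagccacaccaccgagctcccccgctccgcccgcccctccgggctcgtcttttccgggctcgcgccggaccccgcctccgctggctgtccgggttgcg

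The Fabp1 window holds a DR1 match (TGACCTATGGCCT) whose first base lies 67 bases upstream of the start site, and a TATA box 30 bases upstream. Fabp1 alone among the 10 windows had a DR1 match, which 0.381% of all 32851 mouse promoter windows contain, and it alone had a TATA box, which 13.6% contain. The only sterol response element, GTGGGGTGA, lay 76 bases upstream in the second Acsl1 window at chr8:46490716-46491015 (+), against 1.24% of all windows. CCAAT boxes were in 5 of the 10 windows, including those of Fabp2 and Acsl3, against 37.4% of all windows. No HNF1 match of this spelling was found in the 10 windows, nor in more than 0.00913% of all windows. In the printed windows GC content was 45.0% for Fabp1, 38.7% for Fabp2, 74.0% for Acsl3 and 71.7% for Acsl4. The median over all windows was 52.7%. GC content did not sort the called genes by their direction in METTL3 knockout livers. Slc27a2 and Acsl1 were lower there too, with 65.3% for Slc27a2 and 74.0% for the first Acsl1 window. The second Acsl1 window lay below that median. A match is a description of these letters and no evidence of binding.

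In METTL3 knockout livers the genes of this set split. Acsl4 was 6.24-fold and Acsl3 2.25-fold higher than in METTL3 flox/flox livers, while Fabp2 was 4.83-fold, Slc27a2 3.38-fold, Fabp1 2.76-fold and Acsl1 2.22-fold lower. These 6 of the 10 genes passed an edgeR adjusted p under 0.05, 2 higher and 4 lower, and Acsl5, Slc27a4, Cd36 and Fabp4 did not. Over all 12450 genes tested, 30.5% were called, 15.2% higher and 15.3% lower. The 4 livers of one group lay beyond the 4 of the other for the same 6 genes, as they did for 31.4% of all genes (15.4% higher, 16% lower), and each gave a two-sided exact permutation p of 0.0286, the lowest possible with 4 livers on each side. The median log2 fold change of the 10 genes was -0.05, beside 0.04 over all genes.

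Among the synthetases, Acsl4 had 27.0, 43.0, 54.3 and 84.2 CPM in METTL3 knockout livers, against 9.90, 8.52, 7.52 and 7.69 CPM in METTL3 flox/flox livers. Its lowest knockout liver thus lay well above its highest flox/flox liver, and the knockout livers were widely spread (log2 change 2.64 ± 0.31 SE, edgeR adjusted p = 0.000548). Replicate 4, the liver with the high brain markers, had the highest value, and without it the log2 fold change was 2.30 (edgeR adjusted p = 9.47e-05). Acsl3 had 57.4, 71.4, 78.3 and 73.4 CPM in METTL3 knockout livers, against 32.0, 36.0, 31.0 and 25.8 CPM in METTL3 flox/flox livers. Both groups were tight and did not overlap (log2 change 1.17 ± 0.15 SE, edgeR adjusted p = 0.000456).

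Acsl1, which feeds both oxidation and lipid synthesis in liver, had 1621, 832.8, 777.5 and 540.9 CPM in METTL3 knockout livers, against 2295, 2007, 2142 and 1917 CPM in METTL3 flox/flox livers. All knockout livers were lower, and replicate 1 was the least reduced (log2 change -1.15 ± 0.29 SE, edgeR adjusted p = 0.0122). Acsl5, a synthetase of mitochondria and endoplasmic reticulum, had 443.0, 417.8, 459.1 and 377.5 CPM in METTL3 knockout livers, against 387.9, 427.5, 446.9 and 349.6 CPM in METTL3 flox/flox livers. The groups overlapped (log2 change 0.08 ± 0.15 SE, edgeR adjusted p = 0.732).

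The makeup of the synthetase transcripts followed from these values. Per kilobase, the 4 genes summed to 370 ± 119 CPM per kb in METTL3 knockout livers and 641 ± 47.0 CPM per kb in METTL3 flox/flox livers (SD, n = 4 each). Acsl1 held 63.0% ± 10.2 of that sum in METTL3 knockout livers and 83.7% ± 1.45 in METTL3 flox/flox livers, with no overlap. Acsl5 held 28.6% ± 6.49 in METTL3 knockout livers and 14.8% ± 1.37 in METTL3 flox/flox livers, a larger share although its own level did not pass the test. Acsl3 and Acsl4 stayed minor transcripts: Acsl3 held 5.25% ± 1.85 in METTL3 knockout livers and 1.23% ± 0.15 in METTL3 flox/flox livers, and Acsl4 held 3.12% ± 2.16 in METTL3 knockout livers and 0.248% ± 0.024 in METTL3 flox/flox livers.

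**Figure D2:**
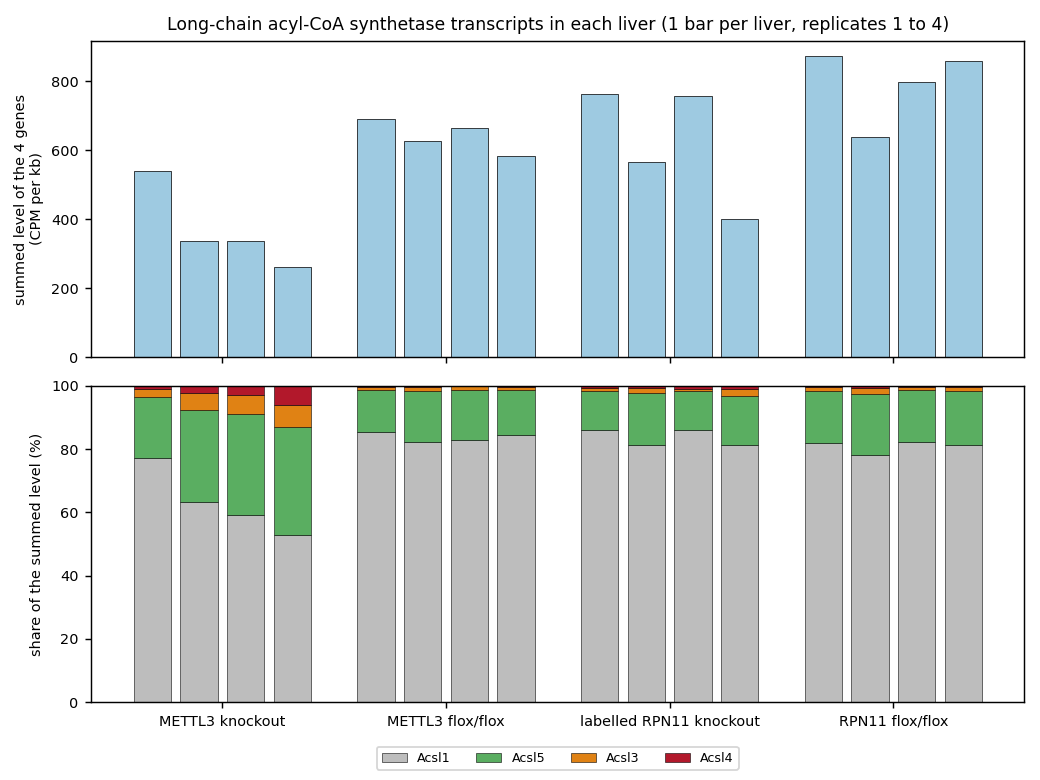
Summed level of Acsl1, Acsl3, Acsl4 and Acsl5 in each liver (upper panel, CPM per kb of principal transcript, axis from 0) and the share of each gene in that sum (lower panel, %), with 1 bar per liver in replicate order within each group. Acsl1 holds 52.9% to 77.0% of the sum in METTL3 knockout livers and 82.2% to 85.3% in METTL3 flox/flox livers.

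Of the transport proteins, Slc27a2 had 1488, 735.5, 630.9 and 416.3 CPM in METTL3 knockout livers, against 2933, 2846, 2631 and 2625 CPM in METTL3 flox/flox livers. Each knockout liver lay far below the narrow flox/flox range (log2 change -1.76 ± 0.33 SE, edgeR adjusted p = 0.00313). Slc27a4, a fatty acid transport protein with synthetase activity, ranged over 17.3 to 21.5 CPM in METTL3 knockout livers and 12.4 to 24.0 CPM in METTL3 flox/flox livers (log2 change 0.14 ± 0.20 SE, edgeR adjusted p = 0.628). Cd36, a receptor for fatty acids and oxidized lipoproteins, had 99.6, 114.2, 95.8 and 238.9 CPM in METTL3 knockout livers, against 76.8, 99.4, 191.7 and 128.1 CPM in METTL3 flox/flox livers. Only replicate 4 among the knockout livers lay above the flox/flox range. Its log2 fold change of 0.15 ± 0.37 (SE, edgeR adjusted p = 0.779) turned to -0.27 without that liver (edgeR adjusted p = 0.504).

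Of the binding proteins, Fabp1 had 3754, 1878, 1580 and 1120 CPM in METTL3 knockout livers, against 6183, 6954, 5550 and 4282 CPM in METTL3 flox/flox livers. The groups were separate, with replicate 1 of the knockout livers closest to the flox/flox livers (log2 change -1.47 ± 0.34 SE, edgeR adjusted p = 0.00824). Fabp2, the intestinal-type binding protein, had 78.7, 29.4, 25.4 and 19.0 CPM in METTL3 knockout livers, against 161.8, 201.2, 210.5 and 160.5 CPM in METTL3 flox/flox livers. It was the most strongly lowered of the 10 genes (log2 change -2.27 ± 0.42 SE, edgeR adjusted p = 0.0054). Without METTL3 knockout replicate 1, its highest knockout liver, the log2 fold change was -2.88. Of the intestinal epithelium markers only Lgals4 could be tested, and it was called lower. The list summed to 6.52 to 20.6 CPM in METTL3 knockout livers and 47.1 to 84.4 CPM in METTL3 flox/flox livers, nearly all of it Lgals4, while Sis and Cdx2 stayed at or below 0.171 CPM in all 16 livers. Vil1 and Cdh17 were low too, but reached 1.11 and 0.830 CPM in METTL3 knockout livers. In METTL3 flox/flox livers their highest values were 0.244 and 0.039 CPM. The part of such cells in the Fabp2 level was not tested. Fabp4, the binding protein of adipocytes, macrophages and capillary endothelium, ranged over 7.51 to 11.7 CPM in METTL3 knockout livers and 7.68 to 17.9 CPM in METTL3 flox/flox livers (log2 change -0.18 ± 0.27 SE, edgeR adjusted p = 0.638).

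Liver by liver, the changes were graded alike. METTL3 knockout replicate 1 was the liver nearest to the flox/flox mean for all 6 called genes, and replicate 4 was the farthest for 5 of them, with replicate 3 farthest for Acsl3. All 6 calls held in all 15 alternatives to the processing, 8 of which left out a liver of this line. Plain library totals in place of TMM raised the median of all genes to a log2 fold change of 0.46. Under that scaling the 6 genes kept their calls and direction, Acsl5 was also called higher (log2 change 0.49, edgeR adjusted p = 0.0176), and the calls over all genes became 4077 higher and 789 lower, against 1893 higher and 1906 lower with TMM.

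Markers of other liver cells moved in the same comparison. All 6 tested macrophage markers were called higher, and their summed level, with Csf1r included, was 288 to 397 CPM in METTL3 knockout livers and 110 to 154 CPM in METTL3 flox/flox livers, with Csf1r itself at 0 to 0.622 CPM. All 5 stellate markers were higher, at summed levels of 355 to 469 CPM in METTL3 knockout livers and 225 to 295 CPM in METTL3 flox/flox livers. Of the endothelial markers, 3 of 7 tested were higher (Pecam1, Kdr and Cdh5). The whole endothelial list summed to 217 to 257 CPM in METTL3 knockout livers and 167 to 218 CPM in METTL3 flox/flox livers. These sums overlapped at their ends, and Stab2 was at 0 to 0.455 CPM in both groups. Hepatocyte markers summed to 136278, 79908, 65593 and 62164 CPM in METTL3 knockout replicates 1 to 4. Their replicate 1 was again nearest to the METTL3 flox/flox livers and replicate 4 farthest. METTL3 flox/flox livers had 123599 to 150331 CPM, a range that includes replicate 1 of the knockout livers. Most of each sum was Alb, and 2 of 6 markers, Ttr and Hnf4a, were called lower by edgeR (4 lower at an unadjusted p under 0.05, and 4 by DESeq2). In bulk liver, fewer cells of a type and less RNA per cell cannot be told apart. The part of these cells in the levels of Acsl3, Acsl4 and the lowered genes was not tested.

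**Figure D3:**
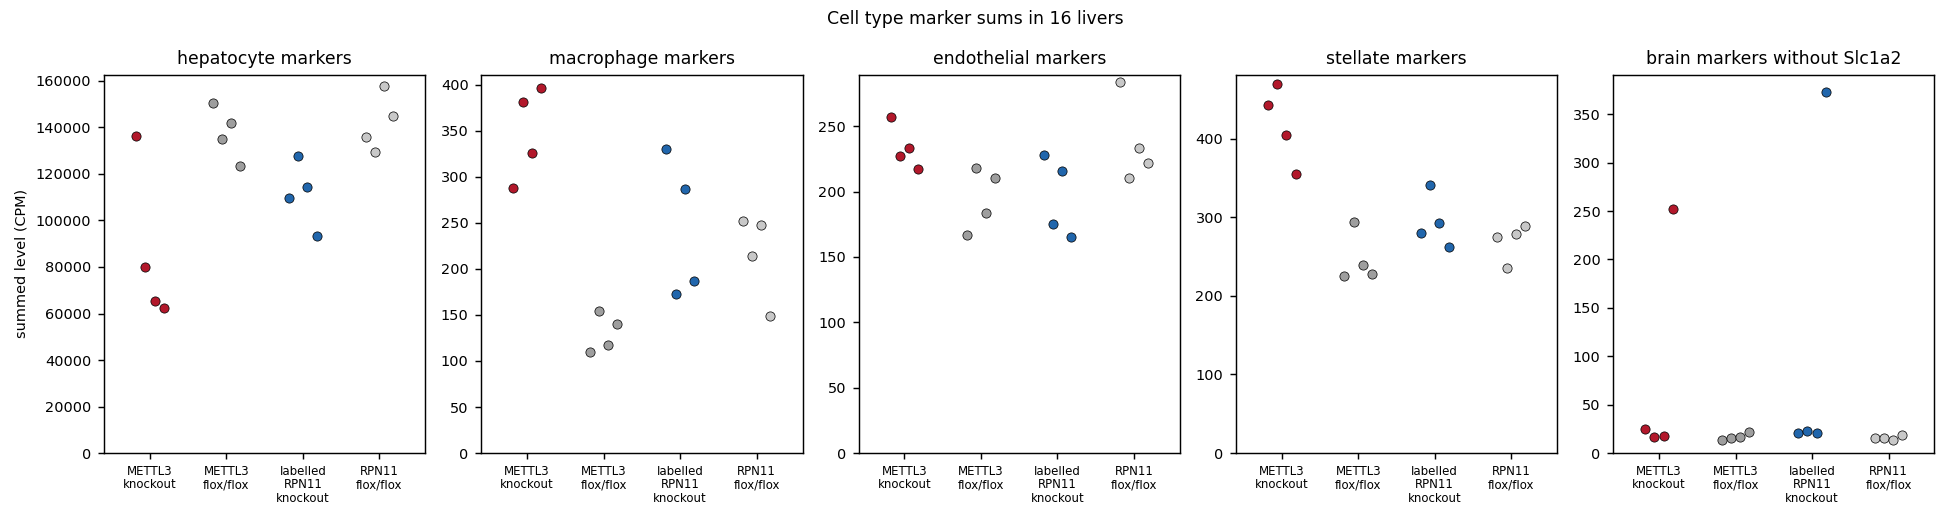
Summed level (CPM, vertical axes from 0) of hepatocyte, macrophage, endothelial, stellate and brain markers (the last without Slc1a2) in each liver, by group, with 1 point per liver and replicates 1 to 4 from left to right. Macrophage and stellate sums lie higher in all METTL3 knockout livers than in METTL3 flox/flox livers, and brain markers reach 252 and 373 CPM in the replicate 4 liver of either knockout group.

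Other genes of fatty acid handling were read from lists chosen by function, also with earlier results of these data known. Of 12 tested genes of uptake and activation outside the set, 3 were higher and 3 lower in METTL3 knockout livers. The shares over all genes were 15.2% higher and 15.3% lower. Lpl, the lipase that frees fatty acids from circulating triglyceride, averaged 23.9 ± 7.27 CPM in METTL3 knockout livers and 3.14 ± 0.80 CPM in METTL3 flox/flox livers (7.64-fold higher, edgeR adjusted p = 0.000141). Fabp7, the brain-type binding protein, was 2.85-fold higher, while Slc27a5, the bile acid and very-long-chain synthetase of hepatocytes, was 2.10-fold lower and Got2, an aminotransferase also described as a membrane fatty acid-binding protein, 1.61-fold lower. The list's median log2 fold change was -0.17, and it was 0.31 with plain library totals, which gave 4 higher and 1 lower.

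Downstream of the synthetases, 10 of 16 tested genes that use long-chain acyl-CoA were lower and none was higher by edgeR (1 higher at an unadjusted p under 0.05, and 0 by DESeq2). Over all genes, edgeR called 15.3% lower and 15.2% higher. Cpt1a, which commits acyl-CoA to mitochondrial oxidation, averaged 245 ± 111 CPM in METTL3 knockout livers and 680 ± 49.5 CPM in METTL3 flox/flox livers (2.77-fold lower, edgeR adjusted p = 0.00233). The carnitine carrier gene Slc25a20 was 2.28-fold lower, and the triglyceride-forming acyltransferase genes Dgat2 and Dgat1 were 2.02-fold and 1.77-fold lower. The list's median log2 fold change was -0.69. Without replicate 4 of the knockout livers, 7 were lower, and with plain library totals 5 were lower and 3 higher.

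Of the 15 PPAR alpha target genes outside the set, 10 were lower in METTL3 knockout livers (median log2 fold change -1.23), among them Acaa1b, a peroxisomal thiolase (4.32-fold lower), Cyp4a10, a fatty acid omega-hydroxylase (3.42-fold), and Vnn1, a pantetheinase (2.65-fold). Here too the shares over all genes were 15.3% lower and 15.2% higher. A single target was higher, Pdk4, a kinase that restrains pyruvate dehydrogenase, named here after its values were seen (5.35-fold). All 3 tested PPAR gamma targets were lower: Plin4, a lipid droplet coat protein (10.8-fold), Cidec, a lipid droplet fusion protein (6.34-fold), and G0s2, an inhibitor of adipose triglyceride lipase (4.68-fold). Of 13 transcription factor genes tested, 7 were lower, led by Cebpa (2.40-fold), Nr1i2 (2.13-fold), Nr1h3 (1.65-fold) and Creb3l3 (2.35-fold). Ppard alone was higher (2.23-fold). With plain library totals 4 were lower and 1 higher. Ppara itself averaged 56.3 ± 25.0 CPM in METTL3 knockout livers and 94.3 ± 18.9 CPM in METTL3 flox/flox livers, which did not pass (edgeR adjusted p = 0.0708).

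In livers labelled RPN11 knockout, 4 of the 10 genes were lower and none was called higher by edgeR. Fabp1 was 1.62-fold, Acsl5 1.59-fold, Slc27a4 1.56-fold and Fabp2 1.54-fold lower than in RPN11 flox/flox livers. Over all 12108 genes tested, 4.81% were called, 1.99% higher and 2.82% lower. Each of the 4 genes had separate groups, as did 17.6% of all genes (7.56% higher and 10.1% lower), with an exact two-sided permutation p = 0.0286. The median log2 fold change was -0.33 for the 10 genes and 0.03 over all genes, and 8 of the 10 were below 0, as were 46.6% of all genes.

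Acsl5 had 392.9, 396.8, 397.0 and 263.6 CPM in livers labelled RPN11 knockout, against 615.6, 524.3, 560.4 and 624.6 CPM in RPN11 flox/flox livers. Replicate 4 was the lowest, and the other 3 labelled knockout livers were nearly equal and still below every flox/flox liver (log2 change -0.67 ± 0.14 SE, edgeR adjusted p = 0.0237). Acsl4 had 27.7, 18.7, 37.2 and 23.5 CPM in livers labelled RPN11 knockout, against 18.3, 20.6, 12.4 and 12.6 CPM in RPN11 flox/flox livers. The ranges overlapped in a single liver of each group, and the log2 fold change of 0.76 ± 0.23 (SE) had an unadjusted p = 0.00777 and an edgeR adjusted p = 0.083. DESeq2 called it higher, and so did edgeR with plain library totals (edgeR adjusted p = 0.0441). Acsl1 ranged over 1270 to 2561 CPM in livers labelled RPN11 knockout and 1948 to 2789 CPM in RPN11 flox/flox livers (log2 change -0.29 ± 0.21 SE, edgeR adjusted p = 0.415). Acsl3 ranged over 23.7 to 35.4 CPM in livers labelled RPN11 knockout and 33.5 to 49.1 CPM in RPN11 flox/flox livers (log2 change -0.37 ± 0.16 SE, edgeR adjusted p = 0.178). The makeup of the synthetase transcripts overlapped between the groups for Acsl1, which held 83.6% ± 2.77 of the sum per kilobase in livers labelled RPN11 knockout and 80.9% ± 1.85 in RPN11 flox/flox livers. For Acsl4 the share was 0.838% ± 0.222 in livers labelled RPN11 knockout and 0.394% ± 0.153 in RPN11 flox/flox livers, with every labelled knockout liver above every flox/flox liver.

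Slc27a4 had 16.3, 14.5, 14.9 and 14.9 CPM in livers labelled RPN11 knockout, against 24.2, 23.8, 25.8 and 21.6 CPM in RPN11 flox/flox livers. Both groups were narrow (log2 change -0.64 ± 0.12 SE, edgeR adjusted p = 0.017). Slc27a2 ranged over 1611 to 2319 CPM in livers labelled RPN11 knockout and 2091 to 2729 CPM in RPN11 flox/flox livers (log2 change -0.23 ± 0.14 SE, edgeR adjusted p = 0.32). Cd36 had 144.7, 132.9, 155.7 and 288.0 CPM in livers labelled RPN11 knockout, against 229.1, 128.6, 278.4 and 256.1 CPM in RPN11 flox/flox livers, and the groups overlapped (log2 change -0.27 ± 0.32 SE, edgeR adjusted p = 0.636). Without the replicate 4 liver the log2 fold change was -0.62 (edgeR adjusted p = 0.148).

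Fabp1 had 4094, 4654, 3934 and 3763 CPM in livers labelled RPN11 knockout, against 6602, 5314, 7268 and 7826 CPM in RPN11 flox/flox livers. The labelled knockout livers were the tighter group and all lower (log2 change -0.70 ± 0.15 SE, edgeR adjusted p = 0.0249). Fabp2 had 133.0, 192.1, 121.0 and 129.4 CPM in livers labelled RPN11 knockout, against 218.0, 197.9, 245.6 and 235.1 CPM in RPN11 flox/flox livers. Replicate 2 of the labelled knockout livers came close to the lowest flox/flox liver (log2 change -0.62 ± 0.15 SE, edgeR adjusted p = 0.037). Fabp4 had 12.0, 11.2, 11.9 and 32.2 CPM in livers labelled RPN11 knockout, against 8.38, 9.53, 17.2 and 13.1 CPM in RPN11 flox/flox livers (log2 change 0.52 ± 0.41 SE, edgeR adjusted p = 0.463). Without the high replicate 4 liver the log2 fold change was -0.040. In that liver the macrophage markers summed to 187 CPM, within the 173 to 330 CPM of livers labelled RPN11 knockout. The sum joined opposite moves. Cd68 was at 72.0 CPM there, against 10.3 to 13.6 CPM in the other livers labelled RPN11 knockout. Clec4f (39.9 CPM), Vsig4 (25.3), Timd4 (4.31) and Cd5l (36.7) were at their lowest of that group. Its adipocyte markers summed to 14.9 CPM, the upper end of the 5.48 to 14.9 CPM of livers labelled RPN11 knockout, against 4.19 to 7.14 CPM in RPN11 flox/flox livers. Adipoq was at 1.97 CPM in that liver and at 0 to 0.352 CPM in the other 15, and Plin1 was at 0.492 CPM there and at 0 elsewhere. The part of other cells in that value was not tested.

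**Figure D4:**
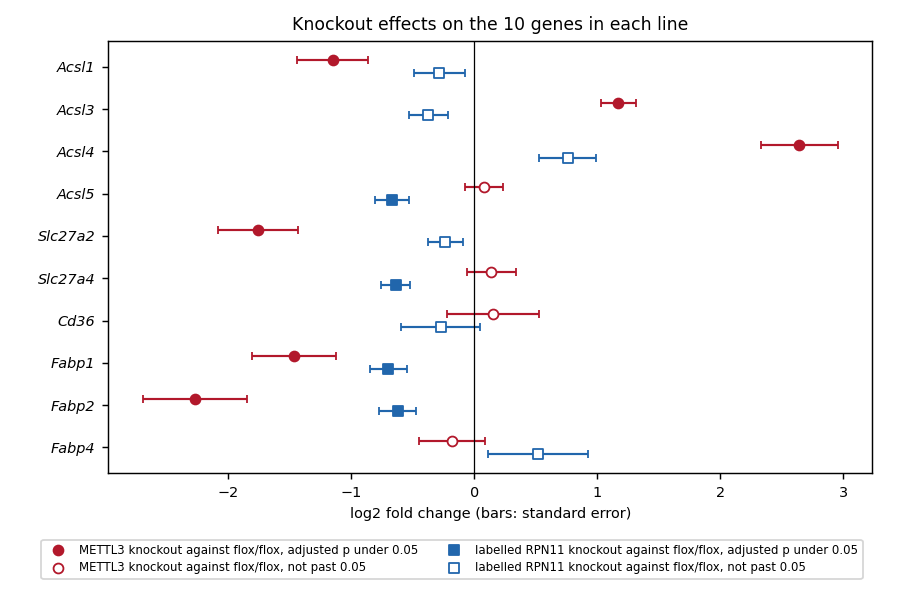
Log2 fold change of each gene (horizontal axis, bars for the standard error) in METTL3 knockout against METTL3 flox/flox livers (circles) and in livers labelled RPN11 knockout against RPN11 flox/flox livers (squares), with filled symbols for an edgeR adjusted p under 0.05. Fabp1 and Fabp2 are filled and below 0 in both lines, and Acsl4 reaches 2.64 among the circles and 0.76 among the squares.

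The RPN11 calls depended on single livers. Leaving out RPN11 flox/flox replicate 1 or replicate 3 left 0 of the 10 genes called by edgeR (5 and 6 at an unadjusted p under 0.05), and leaving out RPN11 flox/flox replicate 4 left 1. Calls over all genes fell in the same fits, from 583 to 60, 59 and 84 without RPN11 flox/flox replicates 1, 3 and 4. The loss was thus not particular to the genes of this set. Without RPN11 flox/flox replicate 2, or without labelled RPN11 knockout replicate 1, 2 or 3, 2 of the 10 genes were called, and without labelled RPN11 knockout replicate 4 all 4 were. All 4 genes stayed below 0 in all 15 alternatives, with log2 fold changes from -0.80 to -0.56 for Fabp1 and from -0.71 to -0.54 for Acsl5. Slc27a4 kept its call in 13 of 15 alternatives, Acsl5 in 9, Fabp1 in 7 and Fabp2 in 5. With plain library totals, which moved the median of all genes to 0.18, Fabp2 lost its call (edgeR adjusted p = 0.0703), and the calls over all genes were 662 higher and 222 lower, against 241 higher and 342 lower with TMM.

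Of markers of other cells in this line, edgeR called none of 6 tested macrophage markers (1 higher at an unadjusted p under 0.05 and 1 by DESeq2), none of 5 stellate markers (1 higher unadjusted, 0 by DESeq2) and none of 7 endothelial markers (1 higher and 1 lower unadjusted, and the same numbers by DESeq2). It called none of 8 brain markers (4 higher unadjusted, 0 by DESeq2). Of 2 tested adipocyte markers it called 1 higher, Adrb3, at 5.17 to 12.9 CPM in livers labelled RPN11 knockout and 3.11 to 4.28 CPM in RPN11 flox/flox livers. Macrophage sums were 173 to 330 CPM in livers labelled RPN11 knockout and 148 to 252 CPM in RPN11 flox/flox livers, and stellate sums were 262 to 341 CPM in livers labelled RPN11 knockout and 236 to 289 CPM in RPN11 flox/flox livers. Hepatocyte sums were 93170 to 127744 CPM in livers labelled RPN11 knockout and 129507 to 157981 CPM in RPN11 flox/flox livers, with no overlap. Most of each sum was Alb, at 71886 to 99668.5 CPM in livers labelled RPN11 knockout and 106478 to 134834 CPM in RPN11 flox/flox livers. Apoa1, Apob, Ttr and Hnf4a overlapped between the groups, and 1 of 6 markers, Tat, was called higher by edgeR (1 higher and 1 lower unadjusted, and the same numbers by DESeq2). The part of these cell types in the lower levels of Fabp1, Fabp2, Acsl5 and Slc27a4 was not tested.

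Around these genes, none of 11 tested uptake and activation genes outside the set was called by edgeR in livers labelled RPN11 knockout (3 higher and 3 lower at an unadjusted p under 0.05, and 3 lower by DESeq2), with a median log2 fold change of -0.07. Without replicate 4 of the labelled knockout livers, 1 was higher and 3 lower. Of 16 users of long-chain acyl-CoA, 5 were lower (median -0.55), beside 2.82% of all genes. Soat2, which forms cholesteryl esters, averaged 14.6 ± 2.50 CPM in livers labelled RPN11 knockout and 26.9 ± 3.61 CPM in RPN11 flox/flox livers (1.81-fold lower, edgeR adjusted p = 0.0169). Lpcat3, a lysophospholipid acyltransferase, was 1.52-fold lower. Without replicate 4, 8 were lower and 1 higher, and DESeq2 called 12 lower.

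Of the 15 PPAR alpha targets, 6 were lower in livers labelled RPN11 knockout (median -0.67), among them Vnn1 (2.32-fold), Acaa1b (2.04-fold) and the lipid droplet coat gene Plin2 (1.66-fold). Over all genes 2.82% were lower. G0s2 was the only called gene of 5 tested PPAR gamma targets (2.26-fold lower), and DESeq2 called 2. Of 13 transcription factor genes, Srebf1, which drives fatty acid synthesis genes, was the only one called. It averaged 36.4 ± 3.64 CPM in livers labelled RPN11 knockout and 100.5 ± 13.6 CPM in RPN11 flox/flox livers (2.73-fold lower, edgeR adjusted p = 0.000413). Without replicate 4, 3 of the 13 were lower, and DESeq2 called 4. Ppara averaged 67.9 ± 32.5 CPM in livers labelled RPN11 knockout and 142 ± 20.8 CPM in RPN11 flox/flox livers and did not pass (edgeR adjusted p = 0.0989).

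Whether the 2 lines differed was tested directly, as the labelled RPN11 knockout effect minus the METTL3 knockout effect. Here 6 of the 10 genes passed, beside 13.1% of all 13118 genes tested (6.96% higher and 6.15% lower), and the median was 0.11 for the 10 genes and 0.02 over all genes. This contrast uses the same livers as the comparisons above. Each line had its own livers, so line and cohort cannot be told apart in it. With plain library totals the median of all genes moved to -0.24 and the calls over all genes to 546 higher and 1436 lower, against 913 higher and 807 lower with TMM, and the members' calls were 2 higher and 4 lower under both. The Acsl3 effect was lower in the RPN11 line by a log2 difference of -1.56 ± 0.22 (SE, edgeR adjusted p = 0.000328), with effects of -0.37 in livers labelled RPN11 knockout and 1.17 in METTL3 knockout livers. For Acsl4 the difference was -1.89 ± 0.41 (SE, edgeR adjusted p = 0.00829), with effects of 0.76 for RPN11 and 2.64 for METTL3, and so of equal sign. For Acsl5 it was -0.76 ± 0.21 (SE, edgeR adjusted p = 0.0262), and for Slc27a4 it was -0.79 ± 0.23 (SE, edgeR adjusted p = 0.0301). Both of those genes fell in livers labelled RPN11 knockout and did not pass in METTL3 knockout livers. Between the flox/flox groups, RPN11 against METTL3, the log2 change was 0.52 for Acsl5 and 0.46 for Slc27a4 (edgeR adjusted p = 0.0428 and 0.205). Acsl5 had 264 to 397 CPM in livers labelled RPN11 knockout and 350 to 447 CPM in METTL3 flox/flox livers. For Slc27a4 these ranges were 14.5 to 16.3 CPM and 12.4 to 24.0 CPM. The part of the starting levels in both differences was not tested.

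In the other direction, Slc27a2 differed by 1.51 ± 0.38 (SE, edgeR adjusted p = 0.0159), with effects of -0.23 for RPN11 and -1.76 for METTL3. Fabp2, lower in both lines, differed by 1.63 ± 0.46 (SE, edgeR adjusted p = 0.0317), with effects of -0.62 for RPN11 and -2.27 for METTL3. Without METTL3 knockout replicate 1 this difference was 2.26. For Fabp1, also lower in both lines, the difference of 0.75 ± 0.40 (SE) did not pass (edgeR adjusted p = 0.233), and for Acsl1 neither did the difference of 0.85 ± 0.39 (SE, edgeR adjusted p = 0.166). Without METTL3 knockout replicate 1, the least changed liver of its group, both passed, with edgeR adjusted p = 0.00559 for Fabp1 and 0.00761 for Acsl1. Cd36 and Fabp4 passed in none of the comparisons.

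The differences for Acsl3, Acsl4 and Slc27a2 held in all 23 alternatives. Those for Acsl5, Fabp2 and Slc27a4 were lost in 6, 9 and 10 of them. Leaving out METTL3 knockout replicate 2, METTL3 knockout replicate 3 or RPN11 flox/flox replicate 1 left 3 of the 10 genes called. Leaving out METTL3 knockout replicate 1 gave 8. Without the replicate 4 livers of both knockout groups 5 passed, and the difference for Fabp2 was then 1.45 (edgeR adjusted p = 0.0539).

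The flox/flox livers of the 2 lines showed how far the starting levels differed. Acsl5 was 1.43-fold higher in RPN11 flox/flox than in METTL3 flox/flox livers, with 524 to 625 CPM and 350 to 447 CPM and no overlap (log2 change 0.52 ± 0.10 SE, edgeR adjusted p = 0.0428). It was the only one of the 10 genes called, beside 0.319% of all 11905 genes tested (0.244% higher and 0.0756% lower), and the call was lost in 10 of 15 alternatives. Among these were the fits without any 1 of METTL3 flox/flox replicates 1, 2 and 3 or of the 4 RPN11 flox/flox replicates. Acsl4 also separated, with 12.4 to 20.6 CPM in RPN11 flox/flox livers and 7.52 to 9.90 CPM in METTL3 flox/flox livers, just short of the threshold (log2 change 0.92 ± 0.20 SE, edgeR adjusted p = 0.0507), and 6 alternatives called it. Groups were separate for 9.13% of all genes, 5.11% higher and 4.02% lower. The log2 fold change was above 0 for 9 of the 10 genes, all but Slc27a2, with a median of 0.34 beside -0.02 over all genes. These livers are also the controls of the knockout comparisons, and line and cohort cannot be told apart between them.

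Across all 16 livers, the genes whose profiles were most like those of the set were found by the root mean square (RMS) difference of centred log2 levels, among 8530 genes with a mean of at least 5 CPM. Acsl1 was nearest to Bbox1 (RMS difference 0.15), Hpgd (0.16) and Fgf1 (0.18), where the SD of Acsl1 itself was 0.69. Slc27a2 was nearest to Hpd (0.14), Hykk (0.14) and Gys2 (0.15), with an SD of its own of 0.83. Fabp1 was nearest to Ces1e (0.19), Rarres2 (0.20) and Plekhb1 (0.21), and Fabp2 to Rdh16 (0.28), Bnip3 (0.29) and Acaa1b (0.29). Acsl5 was nearest to Sc5d (0.14), Samm50 (0.16) and Phactr4 (0.16), with an SD of 0.30. Acsl3 was nearest to Ppp1r13b (0.24), Tlr3 (0.24) and Klf7 (0.24), and Slc27a4 to Lipa (0.18), Apmap (0.18) and Aktip (0.18). Acsl4 was nearest to Luzp1 (0.39), Msr1 (0.39), a scavenger receptor of macrophages, and Nup98 (0.41), where its own SD was 0.98. Matches were loosest relative to their own spread for Cd36 (Gusb, 0.36, against an SD of 0.59) and Fabp4 (Zdhhc24, 0.32, against an SD of 0.49). These profiles share libraries, depth and the grouping of the livers.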

How the data were processed

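RNA of 16 livers was depleted of ribosomal RNA and made into libraries with a low-input kit, per the labels' protocols. Reads were trimmed with cutadapt 1.9.3, aligned to mm10 with HISAT2 2.0.4 and counted with HTSeq 0.9.1, per the submitters' processing notes; the sources used here do not state annotation or strandedness. The authors deposited raw counts per gene, used here, beside 16 columns of normalized values, which were not used. No columns were identical, and every liver is 1 replicate.

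Counts were tested gene by gene with edgeR 4.0.16 (R 4.3.3; filterByExpr, TMM, robust quasi-likelihood test, Benjamini-Hochberg adjustment over all genes tested, threshold 0.05), per line, across lines for the difference, and between flox/flox groups, after a check on simulated data. Fold changes come from these fits and levels (CPM) from a scaling over all 16 livers. The SE is the absolute log2 fold change over the square root of F. Exact permutation tests used log2(CPM + 0.5). Per-kilobase levels used the principal transcript of GENCODE M21. The alternatives were another scaling, other filters, DESeq2 1.42.0, a replicate block, 1 joint fit and leaving out livers; plain library totals were added after seeing the data.

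The members and the gene and marker lists were chosen with earlier results of these data known. The named genes are all members, Mettl3 and Psmd14, up to 4 called genes per list and comparison by lowest p, and the 3 genes nearest to each member, apart from Pdk4, Ppard and Ppara, named after their values were seen; some genes that the rule names are not reported here. Replicate numbers come from the labels.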

Additional observations from a re-analysis of the deposited data

Results flagged for a closer look

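In 8 of the 68 sets of 4 livers looked at, 1 liver stood apart from the other 3 by Dixon's criterion, which chance alone meets in about 1 of 20 sets. In labelled RPN11 knockout replicate 4, Acsl5 was low at 264 CPM, and Cd36 at 288 CPM and Fabp4 at 32.2 CPM were high. The summed brain markers of that liver were high as well, at 856 CPM with Slc1a2 included. Cd36 was high in METTL3 knockout replicate 4 at 239 CPM. Fabp2 was high in labelled RPN11 knockout replicate 2 at 192 CPM. Among the marker sums, adipocyte markers stood apart in RPN11 flox/flox replicate 4 at 7.14 CPM, and intestinal markers, nearly all Lgals4, in METTL3 flox/flox replicate 2 at 84.4 CPM.

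The effects of the 2 lines differed for 6 genes, by a test of the difference itself (labelled RPN11 knockout effect minus METTL3 knockout effect, edgeR). The log2 differences were -1.56 for Acsl3, -1.89 for Acsl4, -0.76 for Acsl5, 1.51 for Slc27a2, -0.79 for Slc27a4 and 1.63 for Fabp2.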

How the results depend on the processing

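Of the single-gene values recomputed under the alternatives, 601 kept direction and side of the threshold, 61 lost a call, 11 gained one and 7 changed sign. The sign changes were all in values that had not passed. For Cd36 in the METTL3 line, leaving out livers in turn gave -0.27 (without METTL3 knockout replicate 4) to 0.44, with -0.027 without METTL3 flox/flox replicate 1. For Fabp4 it gave -0.33 to 0.13 (without METTL3 flox/flox replicate 3) in the METTL3 line, where plain library totals gave 0.26. For Fabp4 it gave -0.040 (without labelled RPN11 knockout replicate 4) to 0.72 in the RPN11 line and -0.14 (without RPN11 flox/flox replicate 3) to 0.40 between the flox/flox groups, with -0.057 without METTL3 flox/flox replicate 1. For the METTL3 line, the count of called members and the 3799 calls over all genes stayed within 1.5 times under every alternative run.

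In the RPN11 line, 4 members were called, and 2 in 1 fit of all 16 livers, with 0 to 4 when livers were left out in turn. Over all genes the 583 calls became 350 without a filter beyond a count above 0, 1330 with DESeq2, 884 with plain library totals, 343 in 1 fit of all 16 livers and 941 without the replicate 4 knockouts, with 59 to 941 when livers were left out in turn. For the difference, leaving out livers gave 3 to 8 members and 1095 to 2663 of all genes, against 6 and 1720. Between the flox/flox groups the 1 called member became 2 with RLE size factors, without the filter, with a mean of at least 5 CPM and with DESeq2, 0 with plain library totals and in 1 fit of all 16 livers, and 0 to 2 when livers were left out, where 4 to 8 members had an unadjusted p under 0.05. The 38 calls over all genes became 66 with RLE size factors, 144 without the filter, 83 with a mean of at least 5 CPM, 423 with DESeq2, 1 in 1 fit of all 16 livers, and 1 to 282 when livers were left out. The cause of these moves was not tested.

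Replicate numbers did not pair the livers: deviations of same-numbered livers correlated at 0.03 to 0.23 in the METTL3 line and at -0.05 to -0.01 in the RPN11 line. With a replicate block, 1 member and 376 of all genes were called in the RPN11 line, 0 and 7 between the flox/flox groups, 6 and 3837 in the METTL3 line, and 6 and 1771 for the difference. The lowest count of a member was 171 reads (Acsl4).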
